A study of Caenorhabditis elegans with 2 samples.

Results

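The anchor cell of Caenorhabditis elegans is a single cell of the somatic gonad that breaches the basement membranes between the uterus and the vulva during larval development. The 10 genes described here, zmp-1, cdh-3, him-4, mig-10, ina-1, pat-3, unc-6, unc-40, unc-34 and mig-2, code for matrix, adhesion, guidance and actin proteins with known roles in that invasion. They are 10 of the 19973 protein-coding genes of the annotation, and they were named for their known roles, with earlier results of these data already at hand. For each gene the peaks counted were those with a summit from 5 kb upstream of the annotated start to the gene end, a span called the window below.

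The peaks come from chromatin immunoprecipitation with sequencing (ChIP-seq) of EGL-43, the C. elegans relative of the mammalian zinc finger protein EVI1 and itself required for anchor cell invasion. The worms, of strain RW12181, carried the allele st12181 on chromosome II, in which CRISPR had placed a TY1::EGFP::3xFLAG tag in egl-43, and the antibody was against GFP. Whole L4 larvae of 49 hours, synchronised by L1 starvation after bleaching, gave 2 biological replicates of 1 group. Untagged worms and input libraries were not analysed here, so binding of the tagged protein cannot be told apart from background signal at any site. Whole animals were used, so the cells in which a site was occupied cannot be told apart either, and the anchor cell is 1 cell among all of the animal's cells.

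The invading membrane of the anchor cell is built by several systems that act together. Netrin (UNC-6) from the ventral nerve cord acts through its receptor UNC-40, integrin holds the cell to the basement membrane, and both direct actin regulators such as UNC-34, MIG-10 and Rac GTPases to the invasive front. EGL-43 is known to act with the AP-1 factor FOS-1 in the anchor cell upstream of zmp-1, cdh-3 and him-4, which code for a matrix metalloprotease, a Fat-like cadherin and the matrix protein hemicentin.

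The deposited lists are peaks on the ce11 assembly with 2 values each. The score grades how reproducible a peak is by the irreproducible discovery rate, with 1000 as its top value, and the signal is the authors' measure of peak strength. The series thresholded list, made from both replicates together, held 3146 peaks with scores of 830 or more, and its conservative version held 3024. The thresholded lists held 1532 peaks in replicate 1 and 1621 in replicate 2. The ranked lists, which also keep weak peaks, held 65641 peaks for the series and 65137 for its conservative version. The ranked list of replicate 1 held 69945 and that of replicate 2 64499. Signals are compared only within a list, whose median was 140.0 in the series thresholded list and 41.5 in the series ranked list. Read depth is unknown, so no counting error can be given for a single signal.

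Of the 10 genes, 3 had a summit in the series thresholded list, namely him-4, mig-10 and pat-3. Across all protein-coding genes 19.1% had one (95% Wilson interval 18.6 to 19.6, counting error only). The windows of these genes held 5 thresholded summits in all, of which 3 were in him-4. The other 4 genes with weaker peaks were unc-6, unc-40, unc-34 and mig-2. No peak of the series ranked list lay in the windows of zmp-1, cdh-3 or ina-1. The sequences around the sites are given first because they show what kind of DNA the strongest sites sit on, and all are read from the WBcel235 assembly, which is ce11, on the + strand, 5′ to 3′.

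The strongest site in any of the 10 windows lay on a transfer RNA gene inside an intron of him-4, at chrX:9743467-9743873. That intron holds 2 tRNA-Ala genes, F15G9.t1 (WBGene00014333) at chrX:9743589-9743660 and F15G9.t2 (WBGene00014334) at chrX:9743747-9743818, both on the + strand like him-4. Each is 72 bp long and 65 positions were identical between them. Their sequences follow, with capitals for the letters GTTCGA, the core of the B box that RNA polymerase III factor TFIIIC reads in tRNA genes, which F15G9.t2 does not have.
F15G9.t1: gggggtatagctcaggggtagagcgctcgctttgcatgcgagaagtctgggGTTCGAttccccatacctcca
F15G9.t2: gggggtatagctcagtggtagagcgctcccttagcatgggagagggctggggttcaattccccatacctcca

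The summit, at position 9743637, fell inside F15G9.t1. The same 72 bp sequence is carried by 8 tRNA genes of the genome, 6 of them with a series thresholded summit within 200 bp. The F15G9.t2 sequence is carried by 15, of which 9 have one. The summit inside F15G9.t1 is also within 200 bp of F15G9.t2, so the same summit serves both tRNA genes of him-4. Reads that lie wholly within identical copies could map to any of them. How the authors' mapping placed such reads may bear on the signal at each copy, and this could not be tested from peak lists.

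The remaining thresholded summits of the 10 genes are shown as the 101 bp centred on the summit, cut to 91 bp at the first of them to leave out untranslated bases of a nested gene. They show the intron site of him-4 beside the gene F15G9.5 (chrX:9737889-9737979), the coding exon site of him-4 (chrX:9724496-9724596), the coding exon site near the end of mig-10 (chrIII:8305374-8305474) and the site upstream of pat-3 (chrIII:3916775-3916875). No letters are in capitals, because none of the motifs searched (listed further on) occurs in them.
him-4 intron: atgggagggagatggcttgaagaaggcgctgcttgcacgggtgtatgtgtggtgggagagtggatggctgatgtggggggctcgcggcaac
him-4 coding exon: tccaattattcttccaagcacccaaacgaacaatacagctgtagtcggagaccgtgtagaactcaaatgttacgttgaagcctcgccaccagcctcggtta
mig-10 coding exon: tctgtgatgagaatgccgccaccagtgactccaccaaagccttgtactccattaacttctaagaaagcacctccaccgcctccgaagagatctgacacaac
pat-3 upstream: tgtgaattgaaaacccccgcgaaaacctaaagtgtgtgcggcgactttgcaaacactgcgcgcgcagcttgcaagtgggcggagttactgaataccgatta

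**Figure D1:**
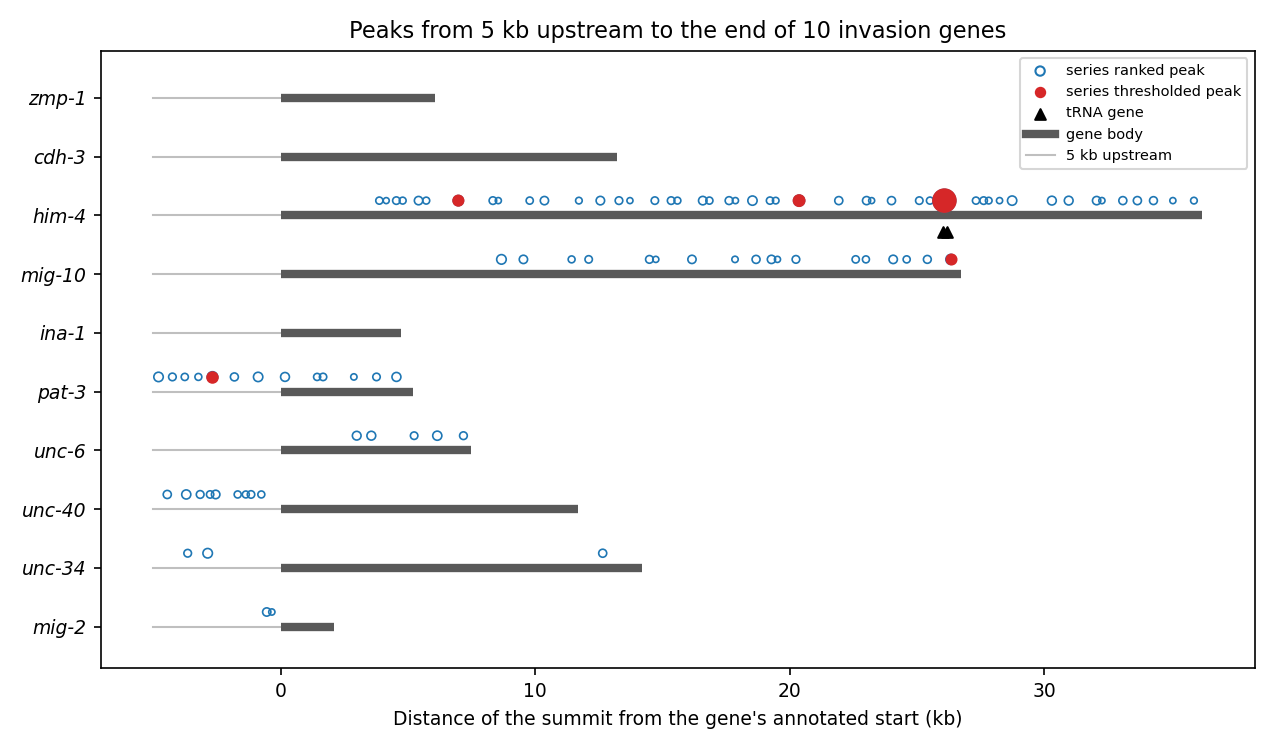
Summits along the 10 genes, with distance from each annotated start in kb on the x axis and 1 row per gene. Open circles are peaks of the series ranked list and filled circles those of the series thresholded list, sized by signal, thick bars are gene bodies, thin lines the 5 kb upstream and triangles the 2 tRNA genes. The 97 ranked peaks lay in 7 genes, 47 of them in him-4, while the rows of zmp-1, cdh-3 and ina-1 are empty.

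Among the 10 genes, him-4 carried the most sites. It codes for hemicentin, a very large extracellular matrix protein that links adjacent basement membranes at the invasion site, and it spans 36200 bp at chrX:9717565-9753764. Its tRNA site had a score of 1000 and a signal of 868 in the series list, where it ranked 8 of 3146. The replicate 1 thresholded list gave 392, rank 15, and that of replicate 2 gave 481, rank 7. It stood near the top of every list. Of the 316 series thresholded peaks with a tRNA gene within 200 bp, whose median signal was 247, none was higher. The site lay 26072 bp downstream of the him-4 start, within him-4 and outside the exons of all 6 of its annotated transcripts.

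The other him-4 sites had signals nearer the list median of 140.0. The intron site 20364 bp into the gene had a score of 1000 and a signal of 153, rank 1252. It lay 41 bp upstream of F15G9.5, a nested gene on the opposite strand that codes for an uncharacterized protein. It was in the replicate 2 thresholded list with a signal of 88.4 and a score of 1000. In replicate 1 it was present in the ranked list alone, with a signal of 61.4 and a score of 568.

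The coding exon site 6981 bp into him-4 had a score of 862 and a signal of 124, rank 2139, and the summit is in an exon of 5 of 6 transcripts. Neither replicate's thresholded list held it. Its ranked peak had a signal of 71.8 and a score of 649 in replicate 1, and 56.3 and 296 in replicate 2. A further coding exon site, 28731 bp into the gene, passed the threshold of the conservative series list alone, with a score of 859 there and 562 in the series ranked list, and a signal of 94.8.

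Ranked peaks filled the body of him-4 from 3878 to 35871 bp after its start. All 47 peaks of the series ranked list were in the gene body and none in the 5 kb upstream of it. Replicate 1 also had none upstream among 41 peaks, whereas replicate 2 had 4 upstream among 42. The 5 kb before the him-4 start held no thresholded summit in any list. At 11.4 ranked peaks per 10 kb, him-4 was denser than 66.8% of the genes in the longest of 5 equal classes of window length, described further on. Of the 47 summits, 29 lay in coding exons. Coding exons take up 42.5% of the whole window, which includes the 5 kb upstream where no series ranked summit lay. The coding share of the gene body alone was not computed, so these figures are not directly comparable.

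**Figure D2:**
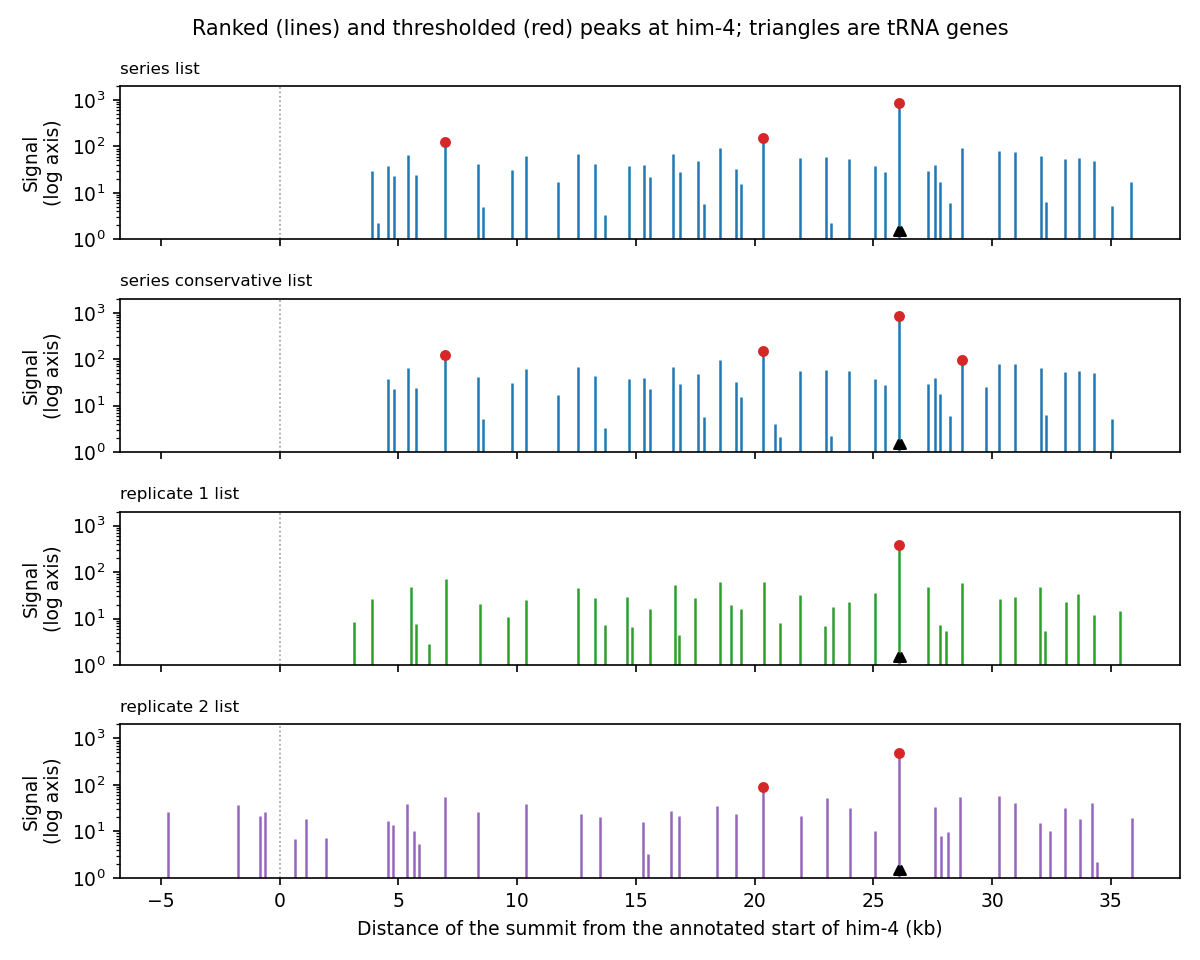
Signal of each ranked peak (log axis) against distance from the him-4 start in kb, in 4 panels for the series, conservative, replicate 1 and replicate 2 lists. Red dots mark thresholded peaks and triangles the tRNA genes. The peak on the tRNA genes, at 868, 868, 392 and 481 in the 4 panels, is the highest in each, and upstream peaks appear in the replicate 2 panel alone.

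The other genes named above as downstream of FOS-1 and EGL-43, zmp-1 and cdh-3, had no series ranked peak. The same held for 20.8% of genes in the longest class of window length. The gene zmp-1, which codes for a membrane-anchored matrix metalloprotease expressed in the invading anchor cell, lies at chrIII:5926895-5932953. Its window held 1 peak over the 4 ranked lists, in replicate 1, with a score of 40 and a signal of 12.6, rank 54149 of 69945. That summit lay 4315 bp upstream of zmp-1 and 48 bp upstream of the start of a neighbour, EGAP1.1. The nearest thresholded summit was 2165 bp further upstream than the window, with a signal of 128 and rank 1982, and lay 136 bp upstream of ubq-1, a polyubiquitin gene.

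For cdh-3, which codes for a Fat-like cadherin that marks the anchor cell, the window of 18220 bp held no peak in any of the 8 lists. Of all protein-coding genes 26.4% had no peak in any list, and in the class with the longest windows the share was 13.2%. The gene lies at chrIII:7741229-7754448, and its nearest thresholded summit was 4266 bp beyond the gene end, with a signal of 166. The anchor cell enhancers known for zmp-1 and cdh-3 were not located in these windows here, so only the whole windows are described.

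The 2 integrin genes differed. PAT-3 is the single beta subunit of C. elegans integrins and INA-1 is a laminin-binding alpha subunit that pairs with it at the invasive membrane. The pat-3 gene, at chrIII:3908931-3914149, had 13 peaks in the series ranked list, 7 of them upstream and 6 in the gene body. That was 12.7 per 10 kb, and 10 of the 13 summits lay in coding exons of pat-3 or of neighbours.

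The thresholded summit of pat-3 was nearer to another gene. It lay 2676 bp upstream of the pat-3 start and 142 bp upstream of the start of ccdc-47, within the windows of both that gene and ZK1058.3. Its score was 1000 and its signal 137, rank 1656 of 3146. In the replicates it was present in the ranked lists alone, at a signal of 61.2 and a score of 604 in replicate 1 and at 72.4 and 616 in replicate 2. These peaks stood at 4.16% and 3.04% from the top of their ranked lists.

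The promoter of pat-3 itself had weaker peaks. The stronger had its summit 882 bp upstream of the start, with a score of 641 and a signal of 96.5 in the series ranked list. Its signal was 40.3 and 56.7 in replicates 1 and 2. A further promoter summit lay 173 bp after the start, with a series signal of 79.8 but a score of 72, the lowest in that list. Replicate 2 had a signal of 52.5 there, and the nearest replicate 1 peak, 290 bp after the start, had 22.6. The strongest pat-3 peak of replicate 1 was another, in a coding exon 4550 bp after the start, at 3.99% from the top of its ranked list, and that site stood at 37.8% in replicate 2. In replicate 1 that site and the one near ccdc-47 were nearly level, at signals of 62.0 (score 463) and 61.2 (score 604). In replicate 2 the site near ccdc-47 was the strongest, at 72.4.

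The ina-1 window (gene at chrIII:9168073-9172802) held no series ranked peak. Replicate 1 had 1 peak, 4392 bp upstream, with a score of 93 and a signal of 37.9. Replicate 2 had 7, all in the gene body, the strongest with a score of 224 and a signal of 27.2. No site was shared between the replicates. The nearest series thresholded summit was 56994 bp beyond the gene end.

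Of the netrin genes, neither ligand nor receptor had a thresholded summit. UNC-6 is the netrin ligand that polarises the anchor cell towards the basement membrane, and its gene lies at chrX:6889674-6897147. The series ranked list had 5 peaks there, all in the gene body from 2990 to 7181 bp after the start. The strongest, in an intron 6154 bp after the start, had a score of 534 and a signal of 89.6, rank 6543 of 65641. It was matched at a signal of 50.4 and a score of 378 in replicate 1, and of 38.6 and 121 in replicate 2.

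The receptor gene unc-40, the worm counterpart of DCC, is on chromosome I at positions 5679837 to 5691503. All 9 of its series ranked peaks were upstream and none was in the gene body, and 8 of the 9 lay inside other protein-coding genes. The strongest was 3705 bp upstream, in a coding exon of npp-7, which codes for a nuclear pore protein, with a score of 609 and a signal of 88.8. Both replicates held this peak, at a signal of 49.0 and 43.3 respectively. The gene body was not empty in the other ranked lists, since replicate 1 had 11 peaks there, replicate 2 had 1 and the conservative series list had 1. The conservative peak, 10325 bp after the start, had a score of 336 and a signal of 71.3, at 19.5% from the top. Peaks lay close to it in both replicates, 10336 bp after the start in replicate 1 (score 40) and 10309 bp in replicate 2 (score 48). Each of these scores is the lowest in its ranked list. Replicate 2 placed its strongest peak elsewhere, 2548 bp upstream, at 10.5% from the top of its ranked list, and that site stood at 69.4% from the top in replicate 1.

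Among the actin regulators, mig-10 passed the threshold at the very end of the gene. MIG-10 is the lamellipodin-like adaptor that links netrin signalling to actin assembly, and its gene spans 26737 bp at chrIII:8279101-8305837. The thresholded summit was 26323 bp after the start, in a coding exon and within an exon of all 5 transcripts. The nearest protein-coding start was that of F10E9.7, with the summit 931 bp downstream of it and outside that gene. The summit also lay within the windows of F10E9.4 and F10E9.5. Its score was 902 in the series list and 451 in the conservative ranked list, with a signal of 118, rank 2507 of 3146. The conservative thresholded list did not hold it.

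The replicates were unequal at that site. The peak ranked 1495 in replicate 2, with a signal of 79.9 and a score of 769, but 17074 in replicate 1, with a signal of 34.7 and a score of 178. As shares of the ranked lists these are 2.32% and 24.4% from the top. A second mig-10 site lay in an intron 8674 bp after the start, 7 bp from the noncoding RNA gene F10E9.16. It fell just short of the threshold in the series list, with a score of 815 and a signal of 104. Its score was 601 in the conservative ranked list. In the ranked lists it stood at 18.4% from the top in replicate 1, with a signal of 38.9, and at 4.59% in replicate 2, with a signal of 64.0. All 18 series ranked peaks of mig-10 were in the gene body, from 8674 bp onward, and its upstream 5 kb was empty in all 4 ranked lists.

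The gene unc-34, at chrV:982706-996914, codes for the Ena/VASP protein that elongates actin filaments. It had 3 series ranked peaks, and the strongest was intergenic, 2864 bp upstream. That site had a score of 758, below the threshold, and a signal of 102, rank 4234 of 65641. In the conservative ranked list its score was 817, also below the threshold. The replicates were even, at 7.43% from the top of the replicate 1 list, with a signal of 51.8, and at 7.28% in replicate 2, with a signal of 55.9. The summit lay 61 bp from the noncoding RNA gene Y50D4C.10. Its 101 bp are shown because in the series ranked list this was the strongest upstream peak of the 10 genes outside the promoters and bodies of other protein-coding genes (chrV:979792-979892, no motif of those searched).
unc-34 upstream: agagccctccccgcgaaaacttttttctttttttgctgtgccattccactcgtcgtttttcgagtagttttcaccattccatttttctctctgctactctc

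The gene mig-2 codes for a Rac-like GTPase of the invasive membrane and is the shortest of the 10, at chrX:11548608-11550692. Its strongest series peak was in its own promoter, 544 bp upstream, with a score of 432 and a signal of 62.3. Replicate 1 had a peak of signal 44.4 there and replicate 2 had none in the whole window. A stronger replicate 1 peak, 1820 bp upstream and 293 bp upstream of the neighbour selt-1.1, had a score of 804 and a signal of 73.7 and appeared in no other list. Of the replicates, replicate 1 alone thus had peaks at these mig-2 sites. The conservative series ranked list also had a weak peak 459 bp after the start, with a score of 72 and a signal of 28.2. Neither replicate list had a peak within 200 bp of it.

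**Figure D3:**
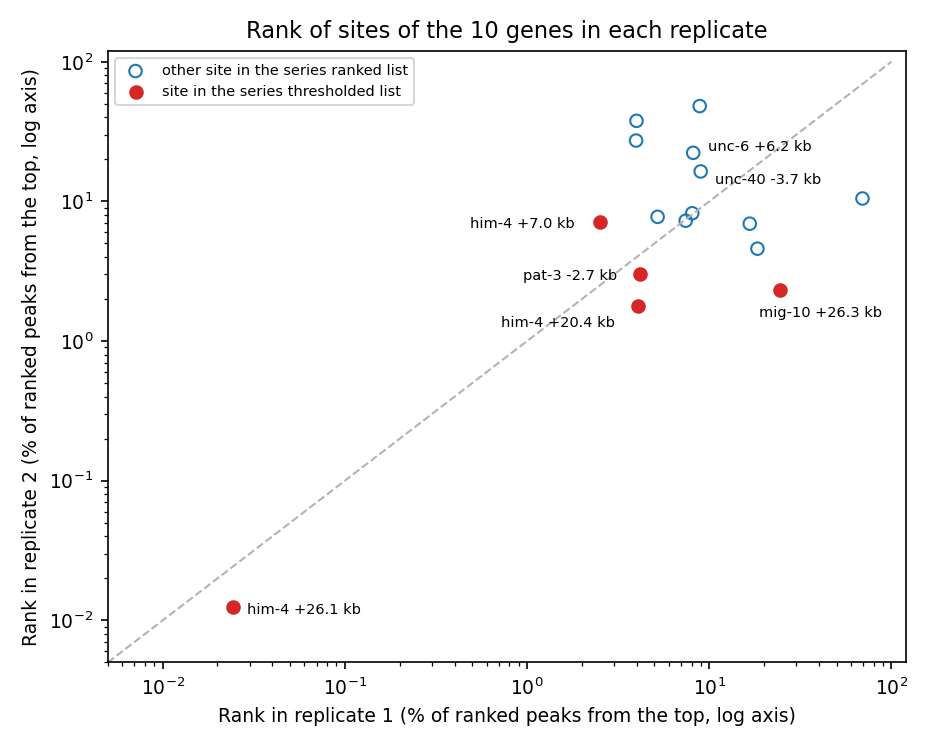
Rank of sites of the 10 genes in the replicate 1 (x axis) and replicate 2 (y axis) ranked lists, in % of the list counted from the top, on log axes, for the sites with a peak in both. Filled circles are series thresholded sites, open circles other sites, and the dashed line marks equal rank. The him-4 tRNA site stands at 0.0243% and 0.0124%, and the mig-10 site is far from the line at 24.4% and 2.32%.

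Sharing between the replicates was counted by gene, at the threshold and in the ranked lists. In the thresholded list of each replicate him-4 was the only one of the 10 with a summit, against 10.6% of protein-coding genes in replicate 1 and 11.1% in replicate 2. Summits in both replicate lists were found in 1 of the 10 genes and 7.54% of all genes. That gene is him-4, and the shared summit was its tRNA site, the only him-4 summit in the replicate 1 thresholded list. In the ranked lists, the strongest series peak had a match within 200 bp in both replicates in 6 of the 10 genes, all of the 7 with a series ranked peak except mig-2. Over all genes the share was 58.7%.

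The looser and stricter lists shift the count of genes with the background. The conservative thresholded list had a summit in 2 of the 10 genes, him-4 and pat-3, against 18.5% of all genes. At a score of 540 or more in the series ranked list, unc-34 and unc-40 joined the 3, against a background of 33.5%. Any ranked peak was found in 7 of the 10 in the series ranked list, against 64.6% of all genes, and in 7 in its conservative version, against 64.2%. The replicate 1 ranked list had one in 9 of the 10, against 70.5%, and the replicate 2 ranked list in 7, against 67.4%. With so few genes, 1 gene more or less moves the share by 10 percentage points, so none of these counts is read as a difference from its background.

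A tRNA or snoRNA gene lay within 200 bp of 1 of the 5 thresholded sites, the him-4 tRNA site. Over the whole series thresholded list the same held for 395 of 3146 peaks. With summits within 200 bp of a tRNA or snoRNA gene left out, him-4, mig-10 and pat-3 each kept a summit, so the count stayed at 3 of 10, against 17.2% of all genes. Over the genome, 344 of 612 tRNA genes (56.2%) had a thresholded summit within 200 bp. For tRNA-Ala genes it was 20 of 34.

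The 10 genes are long, which matters for a count of this kind. Their median window was 14570 bp, against 7027 bp for all protein-coding genes, and 9 of the 10 (mig-2 is the exception) are in the longest of 5 equal classes of window length. In that class 31.2% of genes had a thresholded summit (95% Wilson interval 29.8 to 32.6) and 28.3% had one away from tRNA and snoRNA genes. In the 3 shortest classes the shares with a thresholded summit were 15.3%, 14.2% and 15.2%. For the 10 genes the share was 30.0%. Their median strongest series ranked signal, with 0 where there was none, was 89.2, against 89.7 in the longest class and 68.1 over all genes.

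**Figure D4:**
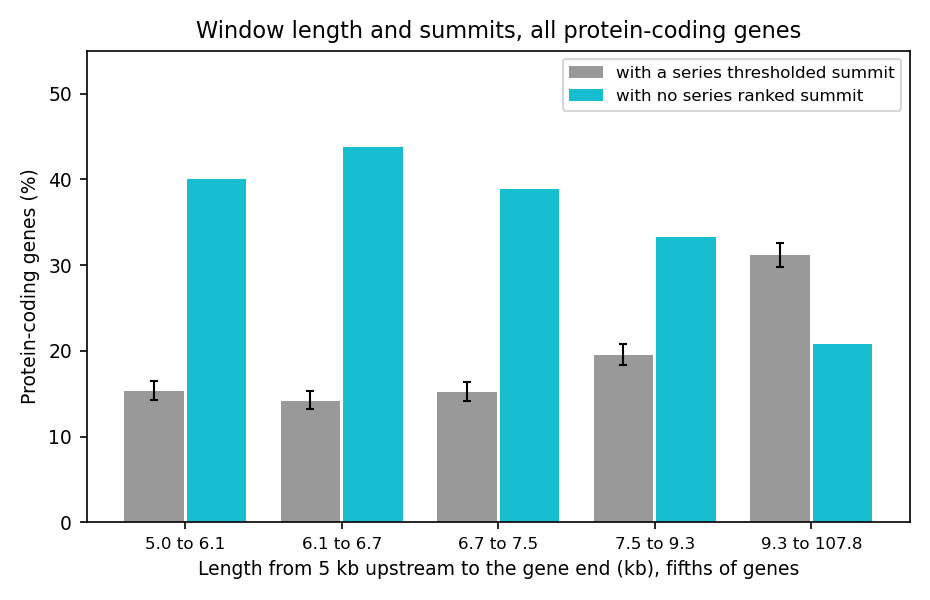
Share of protein-coding genes (y axis, %) with a series thresholded summit (grey, with 95% Wilson intervals) and with no series ranked summit (blue), in 5 equal classes of window length (x axis, kb). The share with a thresholded summit is 31.2% in the longest class, which holds 9 of the 10 genes, and the share with no ranked summit is 20.8% there.

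The density of series ranked peaks ranged from 0 in zmp-1, cdh-3 and ina-1 to 11.4 per 10 kb in him-4 and 12.7 in pat-3. The median of the 10 genes was 3.42 per 10 kb and that of the longest class 8.34, a description with no test. Both him-4 and pat-3 were above the latter. Of the 97 series ranked summits, 54 (55.7%) lay in coding exons, against 40.5% of all series ranked summits. Of the 54, 29 were in the him-4 window, and the 8 in the unc-40 window were all upstream of unc-40. The 40.5% is not limited to windows of like coding content, so nothing particular to the 10 genes is read from it. Among the 97 summits 20 were upstream of the start of their gene and 77 in its body.

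The base composition of the windows varied little. GC content ran from 33.0% in unc-34 to 37.4% in unc-40, around the 35.5% median of the longest class. The windows without a series ranked peak had 33.3% (zmp-1), 35.3% (cdh-3) and 35.3% (ina-1). Over the longest class the median window GC was 33.4% in the 829 genes with no series ranked peak and 36.1% in the 3165 with one. Summits sat on DNA richer in GC than the windows, with a median of 43.6% over all series ranked summits and 52.5% over the thresholded ones. The thresholded sites of him-4, mig-10 and pat-3 had 47.5% to 59.4%. The part of base composition in the peak calls was not tested.

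Motifs were looked for within 50 bp of the 5 thresholded summits on both strands. For mammalian EVI1, parts of the bound sequences were searched, the first being GATAAG, which occurred at 0 of the 5 and at 2.32% of all 3146 series summits. The related GACAAG was at 0 of the 5 and at 5.31% of all. The third, GAAGATG, was at 0 of the 5 and at 2.1% of all. The AP-1 motif TGANTCA, which FOS-1-like factors bind, was at 0 of the 5 and at 1.62% of all. The B box core GTTCGA was at 1 of the 5, in F15G9.t1, and at 9.89% of all summits, and 442 of 612 tRNA genes hold it. A window without a match says only that these letters are not in it.

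Other genes of the same systems were counted from 5 lists of 52 genes. Of the 52, 10 (19.2%) had a series thresholded summit, against 19.1% of all genes. Summits in both replicate lists were found in 5, against 7.54% of all genes. No series ranked peak was found in 11 of the 52. The share of genes without one was 20.8% in the longest class of window length and 33.3% to 43.8% in the other classes. The median window was 11798 bp, longer than the 7027 bp of all genes. Among basement membrane components and matrix enzymes 2 of 17 had one, unc-52 (perlecan) at a signal of 148 in a coding exon and the ADAMTS protease gene mig-17 at 146, 1134 bp upstream. None of the other matrix metalloprotease genes, zmp-2 to zmp-6, had one, and 4 of those 5, like zmp-1, had no peak in the series ranked list.

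Of the integrin adhesion genes 1 of 7 had a thresholded summit, unc-112, which codes for the kindlin homologue, at a signal of 174 and 414 bp upstream of its start. The netrin, Rac and actin list had 6 of 15, with 4 in both replicate lists, beside 19.1% and 7.54% of all genes and 31.2% with a series summit in the longest class. Its called genes include vab-10, whose window is 62568 bp long, and nothing particular to the list is read from the count. Its strongest were unc-115 (an actin-binding protein of the Rac pathway) at 361, wve-1 (the WAVE protein) at 225 and vab-10 (a spectraplakin) at 205, and the unc-115 and vab-10 summits lay on tRNA genes. At wve-1 the summit was 617 bp upstream of its start. Of the anchor cell regulators 1 of 8 had a summit, fos-1 itself, with 3 summits. The strongest of these, 3081 bp upstream, had a signal of 232 and was in both replicate lists.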

How the data were processed

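Peak lists from 2 biological replicates of 1 group were used. They are on ce11, per the file headers and labels. Neither the aligner nor the peak caller is named in the sources used here. Scores are the irreproducible discovery rate scores deposited by the authors, and the signal of each peak is the authors' own, used within a list only. The summit offset was also deposited by the authors. Another 40 columns of the 4 ranked lists have no header and were not used. Depth is unknown, so intervals on shares of genes cover counting error only.

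Windows ran from 5 kb upstream to the end of each gene of Ensembl release 115. Summits within 200 bp were matched between lists. Promoters were taken as 1000 bp before to 500 bp after a protein-coding start. The counting was tested on planted summits. Python 3.11.15, pandas 2.3.3, numpy 2.4.6, scipy 1.17.1 and matplotlib 3.10.9 were used. Sequences are from the NCBI RefSeq copy of WBcel235. The genes and lists were chosen with earlier results of these data known. All 10 genes are named, and up to the 3 genes of highest signal in each list. No test between groups was possible with 1 group. The alternatives were other lists, score limits, windows, overlap rules and small RNA distances.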

Additional observations from a re-analysis of the deposited data

How the results depend on the processing

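No paired analysis was possible because both samples belong to 1 group. The count of genes with a summit, 3 in the series thresholded list, was 1 when either replicate list was used in place of the series list (him-4 both times). It was 1 for peaks at or above the median signal, 5 at a score of 540 or more and 1 when a summit was given to the nearest start alone. Away from tRNA and snoRNA genes it was 0 to 1 with a single replicate, and 1, 5 and 1 under the other alternatives named. The conservative list, 1 kb upstream and the gene body alone gave 2, and 10 kb upstream gave 4, with zmp-1 added. The background share of genes, 19.1%, was 10.6% to 11.1% with a single replicate, 18.5% in the conservative list, 11.1% at or above the median signal, 33.5% at a score of 540 or more, 11.2% with 1 kb upstream, 27.0% with 10 kb, 6.9% for gene bodies, 19.8% for any overlap and 10.6% for the nearest start. Matches in both replicates stayed at 6 genes and motif hits at 1. With 10 genes, 1 gene moves the share by 10 percentage points, and the unknown depth leaves the absence of a peak at cdh-3 or zmp-1 unquantified.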
